A study of Mus musculus with 2 samples.

Results

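Mature regulatory dendritic cells, also called mregDC, were taken from single-cell RNA-seq of CD45+ cells sorted from subcutaneous mouse tumours. A barcode was a member when it had at least 1000 UMIs (unique molecular identifiers, each standing for 1 captured RNA molecule), under 10% mitochondrial UMIs, at least 5 UMIs summed over Ccr7, Fscn1, Cacnb3 and Nudt17, no UMI of Cd3d, Cd3e or Cd3g, and at most 5 summed over C1qa, C1qb and C1qc. The rule found 366 members among the 7642 barcodes within the limits on UMIs and mitochondrial share, of 10533 in the files. Of these, 209 of 4431 came from the library labelled CD94-KO and 157 of 3211 from the WT library. Both groups were C57BL/6J mice of 6 to 8 weeks. The first is labelled as lacking CD94, the receptor chain encoded by Klrd1, and the second as wild type. The study names 5 tumour-bearing mice in its design, and each genotype is 1 library, so animals cannot be separated. The tumour line and the knockout allele are not given in the sources used here.

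Dendritic cells take up antigen in tissues and present it to T cells. On maturation they induce the chemokine receptor CCR7, which guides them to lymph nodes along CCL19 and CCL21, and the actin-bundling protein fascin, encoded by Fscn1, and they reduce phagocytosis. In tumours, cells in this state also carry inhibitory ligands such as PD-L1 and CD200 beside costimulatory molecules and interleukin-12, which is why they are called mature and regulatory. CD94 pairs with NKG2A on NK cells and CD8 T cells and binds Qa-1, a non-classical MHC class I molecule encoded by H2-T23 in the mouse.

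The rule admitted barcodes that carried markers of other cell types, some of them beside genes of mature dendritic cells. In the CD94-KO library 17 members and in the WT library 48 members carried at least 5 UMIs, and at least 5 per 10000, of 12 markers of non-immune cells such as Col1a1, Sparc and Krt18. These barcodes were large, with a median of 60899 UMIs in the CD94-KO library and 65671 in the WT library, and they passed the rule mostly through Fscn1, which fibroblasts and tumour cells also express. Ccr7 was at 0 in 12 of the 17 and 46 of the 48. They held 36.3% of all member UMIs in the CD94-KO library and 75.9% in the WT library. A further 7 CD94-KO and 6 WT members were rich in NK cell markers, and 4 CD94-KO and 1 WT members carried at least 5 UMIs of B cell markers. The remaining 181 CD94-KO members (86.6%) and 102 WT members (65.0%) are called dendritic members here. Beyond the C1q limit of the rule they were not screened for macrophage or cDC2 genes, so such barcodes can be among them. The split into these kinds was made after the values had been seen, so results are given for all members by the rule and for the dendritic members side by side.

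**Figure D1:**
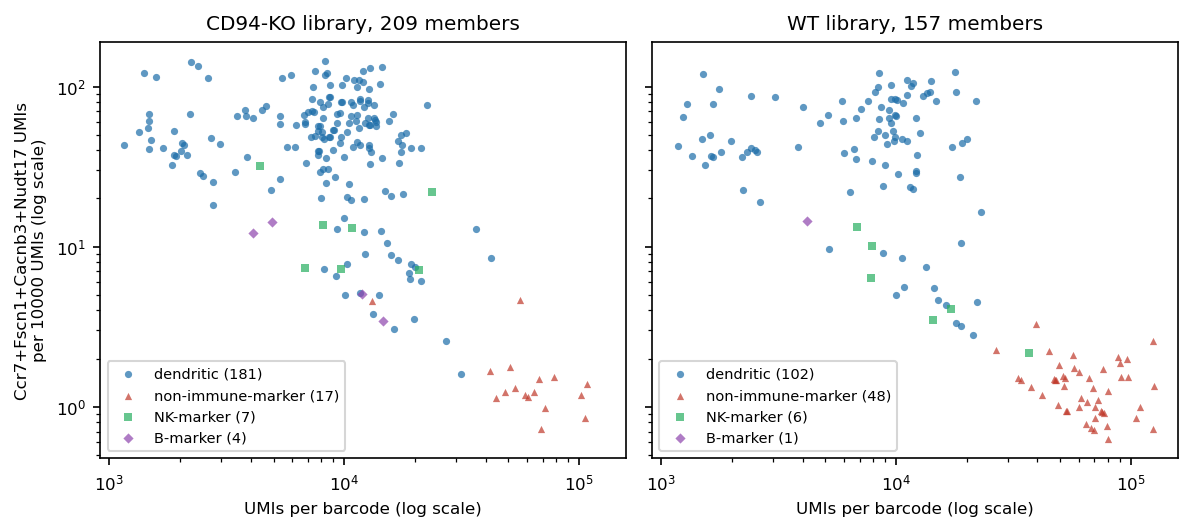
Each point is 1 member barcode, with its total UMIs on a log axis and its summed UMIs of Ccr7, Fscn1, Cacnb3 and Nudt17 per 10000 UMIs on the other log axis, in the CD94-KO library (left) and the WT library (right). Members with non-immune markers lie at high totals and low rule sums; there are 17 of them in the CD94-KO library and 48 in the WT library.

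In the plot of rule genes against total UMIs, dendritic members spread over a wide range of rule sums while the non-immune-marker members stayed at the low end. Dendritic members had a median of 9288 UMIs and 2280 genes in the CD94-KO library, and 9363 UMIs and 2183.5 genes in the WT library. Their median rule sum was 39 UMIs in the CD94-KO library and 34.5 in the WT library. At the threshold, 11 CD94-KO and 20 WT barcodes had a sum of exactly 5, and 4 and 11 of these had no UMI of Ccl22, Il4i1 or Socs2. Just outside it, 18 CD94-KO and 17 WT barcodes had a sum of 4, and 9 and 11 of these had none. No member barcode sequence occurred in both libraries.

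The 4 genes of the rule are given as a description, without a test. Ccr7 stood at 3071 CPM (the counts of a gene scaled to 1000000 UMIs of the summed cells) in dendritic members of the CD94-KO library and 3122 in those of the WT library. In type 2 conventional dendritic cells (cDC2, chosen by Cd209a and Flt3; 158 CD94-KO and 113 WT barcodes) it stood at 22 and 21.6 CPM. Fscn1 had 1169 CPM in CD94-KO and 1294 in WT dendritic members, against 0.525 and 0.745 CPM in cDC2. Cacnb3, a calcium channel subunit, had 426 and 463 CPM, and Nudt17, a Nudix hydrolase, 110 and 148 CPM in CD94-KO and WT dendritic members. Single cells differed: Fscn1 was at 0 UMIs in 57 of 181 CD94-KO and 28 of 102 WT dendritic members, whereas Ccr7 was detected in 99.4% and 98.0% of them. Among cDC2 barcodes Ccr7 was detected in 12.7% and 15%; their median depths were 11158 and 11343 UMIs, above those of the members. With every barcode thinned to 1000 UMIs these shares were 82.9% and 78.4% in dendritic members, and 0% (0 of 158 barcodes, exact 95% upper bound 2.31%) and 2.65% in cDC2. The low shares in cDC2 are in part set by the rule, since a barcode that met it was not counted as cDC2.

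The 3 markers that the rule did not use were also high in dendritic members. Ccl22, a chemokine that attracts CCR4-bearing T cells, had 1651 and 2157 CPM in CD94-KO and WT dendritic members, against 68.7 and 39.5 CPM in cDC2. Socs2, an inhibitor of cytokine signalling, had 358 and 443 CPM in them and 13.1 and 8.20 CPM in cDC2. Il4i1, a secreted amino acid oxidase that restrains T cells, had 466 and 391 CPM, against 41.4 and 37.3 CPM in cDC2. In each of the 3 genes, both dendritic member sums exceeded both cDC2 sums, though the share of all genes that did so was not counted. Markers were not uniform across cells: 10 CD94-KO and 9 WT dendritic members had no UMI of any of the 3. These 3 genes therefore go with the label for the dendritic members taken as sums, and not for every barcode among them. The 9 of 17 CD94-KO and 40 of 48 WT non-immune-marker members without any of these UMIs go against the label.

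The promoters of 5 of the 7 rule and marker genes are in RefSeq's table for GRCm38.p6 (250 bases before to 50 after the gene start): Fscn1, Cacnb3, Nudt17, Ccl22 and Il4i1. A motif of the NF-kB type, GGGA and CC with 4 bases of any kind between them, on either strand, occurs in a window of 4 of these 5 genes and in 6810 of all 32851 windows (20.7%). A gene counts when any of its windows matches, whereas the share over all is of single windows. Of other genes whose windows were read, Nfkb2 and H2-Aa have a match, and Il12b, Cd200, Cd274, Traf1, Ly75 and H2-Eb1 have none. CCAAT on either strand, the core of the Y box of MHC class II promoters, occurs in 1 of the 5 genes and in 12289 windows (37.4%). Ccl22 and Nudt17 are printed because they are high in these cells, and H2-Aa because it splits them below. Capitals mark the matches, which are letters in a window and not evidence of binding. In Nudt17 the capitals cover 2 overlapping matches of the first motif, 1 on each strand. In H2-Aa the first run is this NF-kB-type motif at -131 from the gene start and the second is CCAAT, read on the opposite strand, at -48.
Ccl22, chr8:94745434-94745733, plus strand, match at -131: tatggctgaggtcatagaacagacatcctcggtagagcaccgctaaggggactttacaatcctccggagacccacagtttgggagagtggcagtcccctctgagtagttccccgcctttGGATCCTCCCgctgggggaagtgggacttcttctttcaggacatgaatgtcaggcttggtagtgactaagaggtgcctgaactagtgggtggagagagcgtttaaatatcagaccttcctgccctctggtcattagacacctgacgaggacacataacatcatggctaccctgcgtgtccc
Nudt17, chr3:96708511-96708810, minus strand, match at -112: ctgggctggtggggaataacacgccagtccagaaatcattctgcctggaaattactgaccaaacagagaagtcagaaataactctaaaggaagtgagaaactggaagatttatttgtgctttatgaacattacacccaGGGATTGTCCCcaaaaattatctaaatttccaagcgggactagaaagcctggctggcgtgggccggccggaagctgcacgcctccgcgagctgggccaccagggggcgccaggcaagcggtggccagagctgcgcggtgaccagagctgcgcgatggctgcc
H2-Aa, chr17:34287774-34288073, minus strand: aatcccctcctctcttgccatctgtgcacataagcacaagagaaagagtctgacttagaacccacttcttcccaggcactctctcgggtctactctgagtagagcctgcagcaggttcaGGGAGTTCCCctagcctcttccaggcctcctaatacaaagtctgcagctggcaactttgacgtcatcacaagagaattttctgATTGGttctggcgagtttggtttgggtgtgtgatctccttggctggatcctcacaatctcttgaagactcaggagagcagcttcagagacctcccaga

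Against cDC2, the genes that the rule did not use were tested on UMIs summed per library and class with edgeR's quasi-likelihood test (Benjamini-Hochberg adjusted p under 0.05), with the 2 libraries as replicates of each class. These are other genes of the same barcodes, so the test measures the spread between 2 libraries and not between animals. Over all members 8336 genes were tested, of which 18.2% (1520) were higher and 15.5% (1295) lower than in cDC2. With the dendritic members alone, 7193 genes were tested, of which 16.5% (1184) were higher and 14.2% (1023) lower. The counts within gene lists below are to be read beside these shares. The calls in common made up 24.2% of the all-member list and 31.1% of the dendritic-member list among higher genes, and 49.0% and 62.0% among lower genes. Log2 differences and adjusted p-values below are those of all members, and a second log2 difference is that of the dendritic members, given without a p.

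Most genes of the maturation list were higher in members than in cDC2. The list was chosen with earlier results of these data known, so its counts are a description and not support for the label. Of 21 tested, 15 rose and 1 fell relative to cDC2 over all members, with a median log2 difference of 1.98 against 0.08 over all genes; with dendritic members 22 of 23 were higher, with a median of 3.28 against 0.02. Cd63, a tetraspanin of late endosomes, had 767 and 650 CPM in CD94-KO and WT dendritic members, against 14.7 and 11.9 CPM in cDC2, and it rose by 5.34 on the log2 scale (adjusted p = 4.63e-06); non-immune-marker members carried it too, at 521 and 552 CPM. Serpinb6b, a serine protease inhibitor, had 1253 and 1078 CPM, against 9.44 and 29.1 CPM in cDC2 (log2 difference 4.78, adjusted p = 0.000787). Zmynd15, a zinc finger protein gene, had 287 and 410 CPM, against 5.77 and 3.73 CPM (4.64, adjusted p = 2.12e-05). Bcl2l14, a BCL2 family gene, had 184 and 168 CPM, against 2.10 and 1.49 CPM (5.09, adjusted p = 5.81e-05). In each of these genes the 2 dendritic member sums lay above both cDC2 sums, a pattern not counted over all genes. Ccl17, the other CCR4 ligand, had 1117 and 1660 CPM in dendritic members and 344 and 539 CPM in cDC2, and did not pass over all members (0.30, adjusted p = 0.77; dendritic members 1.79). Cd83, a surface marker of maturation, fell over all members (-1.18, adjusted p = 0.0441), while in dendritic members it had 887 and 743 CPM against 673 and 572 CPM in cDC2, a difference of 0.50. It was at 12.8 and 3.68 CPM in the non-immune-marker members.

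**Figure D2:**
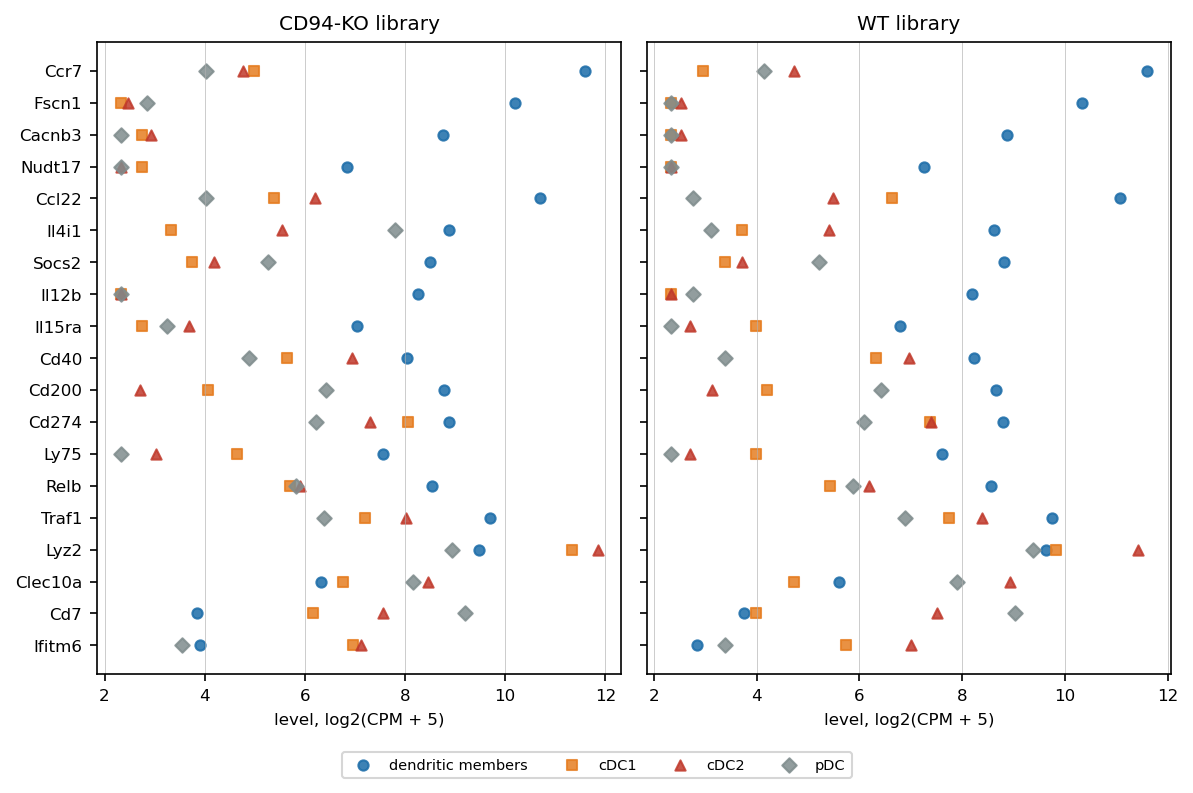
Levels of 19 genes on the log2(CPM + 5) scale in dendritic members, cDC1, cDC2 and plasmacytoid dendritic cells (pDC, 42 CD94-KO and 52 WT barcodes), in the CD94-KO library (left) and the WT library (right). Ccr7, Fscn1, Ccl22, Socs2 and Cd200 are highest in the dendritic members of both libraries.

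The plot of levels by class shows the inhibitory and costimulatory genes on the same scale. Of 14 regulatory genes tested, 2 rose and 5 fell over all members; with dendritic members 8 were higher and 4 lower. Cd200, whose protein restrains myeloid cells through CD200R, had 435 and 401 CPM in CD94-KO and WT dendritic members, against 1.57 and 3.73 CPM in cDC2, and rose by 5.84 (adjusted p = 4.39e-05). It was not confined to them: it was detected in 42.9% and 50% of CD94-KO and WT pDC, and in 70.2% and 67.6% of dendritic members. Cd274, which encodes PD-L1, had 466 and 438 CPM in dendritic members, against 152 and 163 CPM in cDC2. Over all members, however, it was at 296 CPM in the CD94-KO library and 102 CPM in the WT library, and the difference from cDC2 was 0.01 (adjusted p = 0.988), against 1.63 with dendritic members. Pdcd1lg2, which encodes PD-L2, behaved alike, with 156 and 152 CPM in dendritic members, 27.8 and 32.0 CPM in cDC2, and no call over all members (0.85, adjusted p = 0.198). At 1000 UMIs per barcode, Cd274 was detected in 33.1% and 36.3% of CD94-KO and WT dendritic members, and in 15.2% and 11.5% of cDC2. Over all members Havcr2, which encodes TIM-3, fell by 2.52, Tgfb1 by 1.97 and Socs3 by 1.86. The differences with dendritic members were -1.10, -1.05 and -1.19.

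Among 11 costimulation genes tested, 3 rose and 4 fell over all members; with dendritic members 10 of 14 were higher and 2 lower. The 3 that rose were Ly75, which encodes the uptake receptor DEC-205 (184 and 190 CPM in CD94-KO and WT dendritic members, against 3.15 and 1.49 CPM in cDC2; log2 difference 4.92, adjusted p = 2.74e-05), Tnfrsf4, which encodes OX40 (2.56, adjusted p = 0.00111), and Tnfrsf9, which encodes 4-1BB (1.46, adjusted p = 0.00813). Tnfrsf9 had 145 and 234 CPM in dendritic members, against 19.4 and 31.3 CPM in cDC2. Cd40 and Cd80 did not pass over all members. Cd86 fell over all members (-1.23, adjusted p = 0.0146), and its difference with dendritic members was 0.42. Cd40 had 258 and 297 CPM in dendritic members, against 119 and 120 CPM in cDC2, and Cd80 had 85.4 and 79.7 CPM, against 39.9 and 37.3 CPM. Cd48, an adhesion ligand of the SLAM family, fell by 2.69, and Vsir, which encodes VISTA, by 2.17 over all members. With dendritic members the differences were -1.14 and -0.82.

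Most cytokine genes were lower over all members, and a few were far higher. Il12b, the p40 subunit of interleukin-12 and interleukin-23, had 301 and 289 CPM in CD94-KO and WT dendritic members and no UMI in cDC2, which is at least 191-fold higher in the CD94-KO library and at least 129-fold higher in the WT library when cDC2 is set to 3 counts per library. It was detected in 30.4% and 32.4% of dendritic members, and the 10 members richest in it held 67.8% and 81.2% of its UMIs. Il12a, the partner subunit of interleukin-12, had 0.555 CPM in CD94-KO and 0 in WT dendritic members. Il15ra, which presents interleukin-15 to NK and CD8 T cells, had 126 and 106 CPM, against 7.87 and 1.49 CPM in cDC2 (3.40, adjusted p = 0.000733). Il2ra, the high-affinity chain of the interleukin-2 receptor, had 78.2 and 88.2 CPM, against 10.5 and 2.98 CPM (2.12, adjusted p = 0.00867). These 3 were the only risers among the 27 cytokine and receptor genes tested over all members, and 17 fell; with dendritic members 6 were higher and 7 lower. Csf1r, the receptor of macrophage colony-stimulating factor, fell by 2.64 and Il6ra by 2.35 over all members. With dendritic members the differences were -1.07 and -1.65.

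Of 19 chemokine and chemokine receptor genes tested, 3 rose and 12 fell over all members, and 4 were higher and 9 lower with dendritic members. Ccl5, which attracts T and NK cells, had 4060 and 5361 CPM in CD94-KO and WT dendritic members, against 217 and 56.6 CPM in cDC2 (3.68, adjusted p = 0.000672). The third riser beside Ccl22 was Ccl2, a monocyte attractant, and it came from other barcodes: it had 82.1 and 22.3 CPM in dendritic members, below the 115 and 245 CPM of cDC2, and the log2 difference was 2.50 over all members and -1.67 with dendritic members. Ccr2, the receptor that brings monocytes and precursors into tissue, had 76.0 and 39.3 CPM, against 302 and 278 CPM in cDC2, and fell by 3.25 (adjusted p = 0.000102). Ccl4, a chemokine gene, had 39.4 and 36.1 CPM, against 248 and 184 CPM, and fell by 3.11. Cxcl16, the CXCR6 ligand, had 921 and 800 CPM in dendritic members and 257 and 266 CPM in cDC2, with no call over all members (0.30, adjusted p = 0.564).

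The count of NF-kB genes depended on which barcodes were compared. Over all members 4 of 26 rose and 3 fell (median -0.24); with dendritic members 19 were higher and 1 lower (median 0.96). Relb, the subunit of the non-canonical pathway that matures dendritic cells, had 368 and 373 CPM in CD94-KO and WT dendritic members, against 55.1 and 67.8 CPM in cDC2 (1.33, adjusted p = 0.00678). Birc2, a ubiquitin ligase that restrains that pathway, had 228 and 249 CPM, against 38.8 and 44.7 CPM (1.13, adjusted p = 0.0325). Tank and Bcl2a1b also rose, by 0.92 and 0.97; Bcl2a1b has near-identical copies, so its counts are uncertain. Nfkb2, which encodes the p100 precursor, had 190 and 205 CPM in dendritic members, against 70.8 and 79.8 CPM, and did not pass over all members (0.60, adjusted p = 0.0897). Bcl3, an atypical inhibitor protein of the family, fell by 1.87 over all members and was also lower in dendritic members (-1.09). Of 22 genes of migration and the cytoskeleton tested, 4 rose and 7 fell over all members, and 13 of 23 were higher and 4 lower with dendritic members. Over all genes tested, 18.2% were higher and 15.5% lower with all members, and 16.5% and 14.2% with dendritic members. The numbers of NF-kB and of migration genes that rose over all members lie near that share. Marcks, an actin-binding protein gene, had 1229 and 1349 CPM in dendritic members, against 296 and 272 CPM in cDC2, without a call over all members (0.80, adjusted p = 0.0827).

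Most genes of antigen uptake and most interferon-stimulated genes were lower than in cDC2 with either set of members. Of 20 uptake genes tested 16 fell and 1 rose over all members, and with dendritic members 13 were lower and 1 higher. Clec10a, a galactose-type lectin, had 75.4 and 43.5 CPM in CD94-KO and WT dendritic members, against 349 and 485 CPM in cDC2 (-4.39, adjusted p = 0.000192). Clec4a2, an inhibitory lectin, fell by 3.66, and Cd93 by 3.43 over all members (dendritic members -2.26 and -2.24). The riser was Axl, a receptor for apoptotic cells, by 1.74; it had 36.1 and 51.0 CPM in dendritic members, 25.2 and 32.0 CPM in cDC2, and 179 and 163 CPM in non-immune-marker members. Of 17 sensing genes, among them Toll-like receptors, 12 fell over all members, and 5 of 16 were lower and 11 did not pass with dendritic members. Of 31 interferon-stimulated genes, 29 fell over all members, with a median of -2.31, and 22 were lower with dendritic members, with a median of -1.31. Genes of the interferon-gamma response were mixed: 10 of 25 fell and 15 did not pass over all members, and 9 were higher and 7 lower with dendritic members, with a median of 0.04. Ifit3, an interferon-induced RNA-binding protein gene, had 0.555 CPM in CD94-KO and 0 in WT dendritic members, against 38.3 and 8.94 CPM in cDC2 (-6.03, adjusted p = 0.000115). Ifi203, of the interferon-inducible p200 family, had 51.6 and 52.0 CPM, against 325 and 285 CPM (-3.16, adjusted p = 2.58e-05). Macrophage and monocyte markers moved with these groups: the summed level of 18 markers was 2197 and 1621 CPM in CD94-KO and WT dendritic members, against 6474 and 4667 CPM in cDC2, and their part in the lower uptake and interferon genes was not tested.

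Most MHC class II pathway genes were lower over all members, and class I genes depended on which members were compared. Of 16 MHC class II pathway genes tested, 10 fell and 2 rose over all members, and 6 were lower and 1 higher with dendritic members. H2-DMb1 and H2-DMa, the chains of the peptide exchanger H2-DM, fell by 3.24 and 2.57 over all members. For H2-DMa the difference with dendritic members was -1.15. H2-DMb1 had 183 and 178 CPM in CD94-KO and WT dendritic members, against 748 and 922 CPM in cDC2 (adjusted p = 2.74e-05; dendritic members -2.07). H2-Ab1, a class II beta chain, had 5322 and 5168 CPM, against 7901 and 7657 CPM; it fell by 1.96 over all members and the difference was -0.45 with dendritic members. Ctsl, a lysosomal protease, rose by 2.68 over all members, with 1045 and 962 CPM in the non-immune-marker members and 48.3 and 38.2 CPM in dendritic members, below the 101 and 62.6 CPM of cDC2. Among 23 class I pathway genes, 3 rose and 4 fell over all members, with a median log2 difference of -0.30, and 15 were higher and 2 lower with dendritic members, the set chosen after the values were seen. The 3 were H2-Q6, H2-Q7 and H2-Q4, non-classical genes similar enough that reads can be shared between them; H2-Q7 had 864 and 798 CPM in dendritic members, against 106 and 109 CPM in cDC2. H2-T23 fell over all members (-1.15, adjusted p = 0.0116), while dendritic members had 451 and 444 CPM and cDC2 412 and 415 CPM.

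Transcription factor genes of dendritic cells gave 6 rises and 11 falls among 28 over all members, and 15 higher and 6 lower with dendritic members. Ikzf4, which encodes the zinc finger protein Eos, had 71.6 and 51.0 CPM in CD94-KO and WT dendritic members, against 0.525 and 1.49 CPM in cDC2 (4.63, adjusted p = 0.000829). Stat4, a mediator of interleukin-12 signals, had 460 and 412 CPM, against 55.1 and 55.9 CPM (1.53, adjusted p = 0.0158). Batf3, required for the cDC1 lineage, had 135 and 176 CPM, against 24.7 and 16.4 CPM (1.37, adjusted p = 0.017). Irf4, which acts in cDC2, had 25.5 and 24.4 CPM, against 47.2 and 44.7 CPM (-2.35, adjusted p = 0.00156; dendritic members -0.79). Id2 and Irf8 were not called over all members, at 1302 and 1075 CPM for Id2 and 1169 and 1466 CPM for Irf8 in dendritic members. By size, among called genes averaging at least 50 CPM in members, the risers after Il12b over all members were Pcolce, Cyr61 and Mmp2, extracellular matrix genes at 0.555 to 2.22 CPM or 0 in dendritic members and 151 to 242 CPM in non-immune-marker members. Proliferation genes were the same case: 19 of 20 rose over all members, 1 of 12 was higher with dendritic members, and Top2a, the replication topoisomerase, had 8.87 and 13.8 CPM in CD94-KO and WT dendritic members, against 734 and 561 CPM in non-immune-marker members. With dendritic members, the same minimum and genes tested with both sets, the top of the list after Il12b was Tmem150c, Slc27a3, Adcy6, Mreg and Cd200. Adcy6, an adenylate cyclase, had 95.4 and 82.8 CPM, against 0 and 0.745 CPM in cDC2, and Mreg, which encodes melanoregulin, 77.1 and 105 CPM, against 0.525 and 0. Cd7 and Ifitm6 were among the 12 largest falls by size with either set of members. Ifitm6, of the interferon-induced transmembrane family, had 9.98 and 2.12 CPM, against 134 and 123 CPM in cDC2 (-5.61, adjusted p = 2.55e-05). Cd7, a surface protein gene of lymphoid cells, had 9.43 and 8.50 CPM, against 184 and 177 CPM in cDC2 (-4.43, adjusted p = 5.11e-05).

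Type 1 conventional dendritic cells (cDC1, chosen by Xcr1 and Clec9a) gave 44 CD94-KO and 22 WT barcodes. Against them 10.8% of the 8336 genes (901) were higher and 9.81% (818) lower over all members, and 13.1% of 7193 (940) were higher and 11% (788) lower with dendritic members. Uptake and interferon-stimulated genes were lower less often than against cDC2. With dendritic members 7 of 20 uptake genes were lower and none higher, and 13 did not pass. Of 31 interferon-stimulated genes 8 were lower and 1 higher, and 22 did not pass. Of 13 cDC1 markers tested, 11 fell over all members, and with dendritic members 11 were lower and 2 higher. Naaa, a lysosomal amidase, had 124 and 120 CPM in CD94-KO and WT dendritic members, against 607 and 866 CPM in cDC1 (-3.63, adjusted p = 0.000167), and Wdfy4, needed for cross-presentation, had 41.6 and 29.7 CPM, against 241 and 286 CPM (-4.10, adjusted p = 0.000167). Irf8 and Batf3 did not follow them: Irf8 had 1169 and 1466 CPM in dendritic members and 872 and 1055 CPM in cDC1, and Batf3 135 and 176 CPM, against 77.1 and 111 CPM. Neither passed the test against cDC1 over all members. Xcr1 and Clec9a chose the cDC1 and have no test; Xcr1 was at 5.55 and 1.06 CPM in dendritic members. Of 12 cDC2 markers tested against cDC2, 11 fell over all members and 7 were lower with dendritic members. Il4i1, which was not called against cDC2 over all members (1.76, adjusted p = 0.0692), rose by 4.86 against cDC1 (adjusted p = 0.00885), where it had 5.03 and 8.09 CPM. Nfkbia, the inhibitor that NF-kB induces, had 1784 and 1998 CPM in dendritic members, against 489 and 370 CPM in cDC1 (1.67, adjusted p = 0.000636). Against cDC2 it was not called over all members (-0.04, adjusted p = 0.90), and the difference with dendritic members was 0.58.

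Dendritic members differed widely among themselves in MHC class II RNA. The summed level of H2-Aa, H2-Ab1, H2-Eb1 and Cd74 ran from 3.73 to 1042 UMIs per 10000 in the CD94-KO library, with a median of 71.5, and from 6.02 to 759 in the WT library, with a median of 79.9. A limit of 100 per 10000, set after seeing the values, put 105 CD94-KO members (58.0%) and 56 WT members (54.9%) below and 76 (42.0%) and 46 (45.1%) above. It divides a range, and 46 CD94-KO and 24 WT members lay within a factor of 2 of it. The lower side had fewer UMIs, with medians of 7881 and 6759, against 12465 and 11983 on the upper side. Of 4818 genes with enough UMIs, 11.2% (542) were at least 1.5-fold higher and 10.5% (508) at least 1.5-fold lower on the MHC II-low side in both libraries on the log2(CPM + 5) scale. These comparisons are descriptions without a test.

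**Figure D3:**
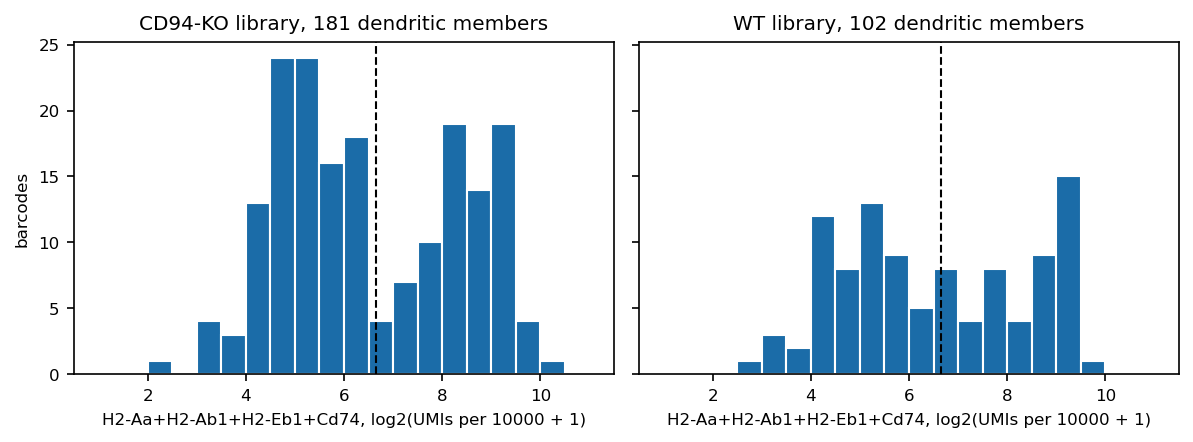
Histogram of summed H2-Aa, H2-Ab1, H2-Eb1 and Cd74 UMIs per 10000 UMIs, as log2 of the value + 1, in dendritic members of the CD94-KO library (left) and the WT library (right), as numbers of cells. The dashed line is the limit of 100 per 10000; 105 CD94-KO and 56 WT members lie below it.

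The histogram of MHC class II levels shows members on both sides of the limit in both libraries. MHC II-low members had 256 and 284 CPM of H2-Ab1 in the CD94-KO and WT libraries, against 9275 and 8178 CPM in MHC II-high members, whose level exceeded the 7901 and 7657 CPM of cDC2. These are the genes that set the limit; of the 11 other MHC class II pathway genes measured, 10 were at least 1.5-fold lower on the low side in both libraries. Ciita, the class II transactivator, had 1.27 and 8.36 CPM in MHC II-low members, against 60.2 and 34.3 CPM in MHC II-high members and 46.7 and 22.4 CPM in cDC2.

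Most maturation genes were higher on the MHC II-low side: of 23 that the rule did not use, 15 were higher in both libraries and 1 was lower. Of the rule genes, given as levels only, Fscn1 had 2096 and 1908 CPM in MHC II-low members of the CD94-KO and WT libraries, against 445 and 915 CPM in MHC II-high members, and Ccr7 had 3740 and 3332 CPM, against 2550 and 2992 CPM. Ccl5, which the rule did not use, had 7568 and 9474 CPM, against 1323 and 2826 CPM, and Net1 440 and 476 CPM, against 72.1 and 44.6 CPM. Tbc1d4, a Rab GTPase-activating protein, had 2141 and 2011 CPM, against 479 and 760 CPM. For Ccl5, Net1 and Tbc1d4 the sides did not overlap between the libraries, but the share of all genes that did so was not counted. Of all 4818 genes, 11.2% were at least 1.5-fold higher on the low side in both libraries.

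Most uptake genes were lower on the MHC II-low side. Of 18 uptake genes measured, 14 were lower in MHC II-low members in both libraries and none higher, and 12 of 23 genes of the interferon-gamma response were lower and 2 higher. Over all 4818 genes, 11.2% were higher and 10.5% lower on the low side in both libraries. Of 24 cytokine and receptor genes 4 were higher and 4 lower, and of 26 NF-kB genes 4 were higher in both libraries. The numbers for these 2 lists lie near the shares over all genes. Cxcl9, an interferon-gamma-induced ligand of CXCR3, had 97.4 and 50.1 CPM in MHC II-low members, against 1430 and 1715 CPM in MHC II-high members and 718 and 818 CPM in cDC2. Il1b had 926 and 1139 CPM, against 4319 and 4020 CPM. Cd209a, the lectin that chose the cDC2, had 3.80 and 11.1 CPM in MHC II-low members and 158 and 206 CPM in MHC II-high members, and stood at 1000 and 1276 CPM in cDC2. Ccl17 had 510 and 1008 CPM on the low side and 1591 and 2062 CPM on the high side. Ccl22, its neighbour on the chromosome, went the other way in the CD94-KO library, with 2306 CPM on the low and 1139 CPM on the high side, and was within 1.5-fold in the WT library, with 2204 and 2129 CPM. The summed macrophage and monocyte markers were 818 and 1287 CPM in MHC II-low members, against 3273 and 1827 CPM in MHC II-high members, and their part in these differences was not tested. Il12b went opposite ways in the libraries, with 249 and 359 CPM in MHC II-low members and 342 and 245 CPM in MHC II-high members. Cd274 was higher on the low side in both libraries, by under 1.5-fold, with 491 and 543 CPM, against 447 and 373 CPM.

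**Figure D4:**
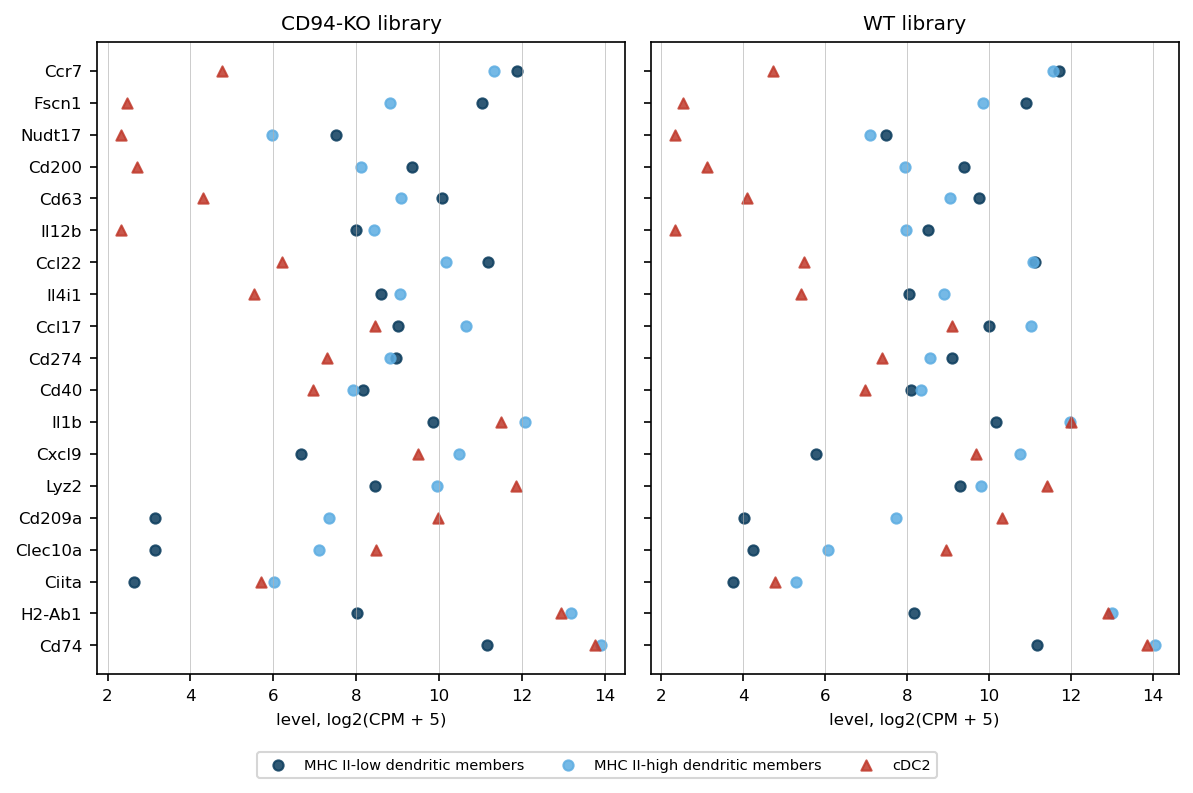
Levels of 19 genes on the log2(CPM + 5) scale in MHC II-low dendritic members, MHC II-high dendritic members and cDC2, in the CD94-KO library (left) and the WT library (right). Fscn1, Nudt17 and Cd200 are highest in MHC II-low members, while Cxcl9, Il1b and Ciita are lowest there.

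The plot of the 3 groups shows that Ccl22, Cd200 and Il12b stood above cDC2 on both sides of the limit. Cd200 had 642 and 663 CPM in MHC II-low members and 274 and 240 CPM in MHC II-high members, against 1.57 and 3.73 CPM in cDC2. Among transcription factor genes 9 of 27 were higher on the low side in both libraries and 1 lower, beside 11.2% and 10.5% of all genes. Batf3 had 234 and 301 CPM in MHC II-low members, against 57.3 and 99.6 CPM in MHC II-high members.

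The comparison of CD94-KO with WT asks how loss of CD94 relates to these cells; with 1 library per genotype it has no test of genotype, and intervals cover counting error only. Klrd1 was checked first. Over all kept barcodes it had 80.1 CPM (3631 UMIs) in the CD94-KO library and 147.6 CPM (5618 UMIs) in the WT library, a ratio of 0.543 (95% interval 0.520 to 0.566). It was thus present in both, and because the counts come from 3′ tags and the deleted part is not known here, this level checks neither label. All members by the rule had 72.3 CPM in the CD94-KO library and 45.6 CPM in the WT library, a ratio on the other side of 1 (1.59, 1.30 to 1.93). Dendritic members had 107 CPM in the CD94-KO library and 153 CPM in the WT library (0.700, 0.561 to 0.875), and cDC2 had 205 and 256 CPM (0.800, 0.690 to 0.928).

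Members by the rule made up 4.72% of kept barcodes in the CD94-KO library (exact 95% interval 4.11 to 5.38) and 4.89% in the WT library (4.17 to 5.69). The intervals overlapped. Dendritic members made up 4.08% (3.52 to 4.71) and 3.18% (2.60 to 3.84), and these intervals also overlapped. For each cDC2 there were 1.32 members (1.07 to 1.64) in the CD94-KO library and 1.39 (1.08 to 1.79) in the WT library, or 1.15 (0.920 to 1.43) and 0.903 (0.684 to 1.19) dendritic members. With 1 library per genotype, a difference in abundance between genotypes has no test.

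Over all members, 16.7% of 8600 measured genes (1436) were at least 1.5-fold higher and 22.2% (1911) at least 1.5-fold lower in the CD94-KO library. Of 29 measured genes of mature dendritic cells and of the CD94 axis that were listed for this comparison and not used by the rule, 24 were at least 1.5-fold higher and none lower. Ccr7, which chose the members, is given as a description: it had 1881 CPM in CD94-KO members, against 694 CPM in WT. The share of member UMIs in non-immune-marker barcodes, 36.3% in the CD94-KO library and 75.9% in the WT library, differed with it. In dendritic members 7.02% of 4818 genes (338) were at least 1.5-fold higher and 3.32% (160) lower, and of the same 29 genes 28 were within 1.5-fold and 1, Cxcl10, was above it.

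**Figure D5:**
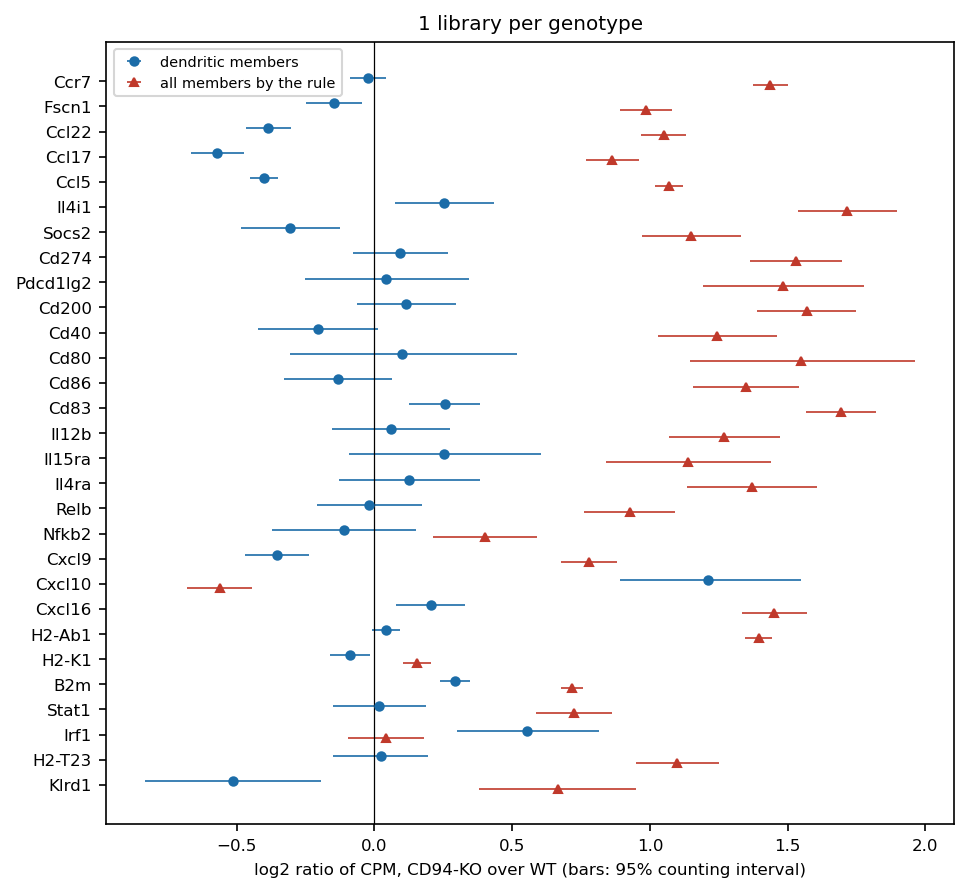
Log2 ratio of CPM, CD94-KO over WT, for 29 genes in dendritic members and in all members by the rule; bars are 95% intervals for counting error, and 0 means equal levels. In all members most genes lie above 0, and in dendritic members most lie near 0, with Cxcl10 the exception.

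The plot of ratios includes rule genes as a description, and the values below are of genes that the rule did not use, in dendritic members. Cd274 stood at 466 CPM in CD94-KO dendritic members and 438 CPM in those of WT (ratio 1.07, 0.946 to 1.20), and H2-T23 451 and 444 CPM, a ratio of 1.02. Cd40 had 258 and 297 CPM (0.867, 0.746 to 1.01) and Il12b 301 and 289 CPM (1.04, 0.900 to 1.21). Some intervals excluded 1 at ratios within 1.5-fold. Ccl22 was lower in the CD94-KO library, at 1651 CPM against 2157 CPM in WT (0.765, 0.723 to 0.810), as was Ccl5, at 4060 CPM against 5361 CPM (0.757, 0.731 to 0.785), and Ccl17, at 1117 CPM against 1660 CPM (0.673, 0.630 to 0.719). For Ccl17, 10 members held 65.7% of its UMIs in the CD94-KO library and 66.9% in the WT library. Il4i1 had 466 and 391 CPM (1.19, 1.05 to 1.35) and Irf1, an interferon-induced transcription factor gene, had a ratio of 1.47 (1.23 to 1.76). Cxcl10, the CXCR3 ligand induced by interferons, stood at 236 CPM in CD94-KO dendritic members, against 102 CPM in WT (2.32, 1.85 to 2.92), and 10 members held 70.7% and 74.0% of its UMIs; Cxcl9, which shares that receptor, had 846 and 1080 CPM, a ratio of 0.783.

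The genes with the largest differences in dendritic members, among those of at least 100 UMIs over both libraries and 50 CPM in at least 1, rested mostly on few cells. Ccl24, an eosinophil attractant made by macrophages, had 420 CPM (757 UMIs) in the CD94-KO library and 5.31 CPM (5 UMIs) in the WT library, a ratio of 79.1 (33.7 to 244), with 95.4% of the CD94-KO UMIs in 10 members. Arg1, arginase 1, had 461 and 66.9 CPM (6.90, 5.33 to 9.06) with 86.4% in 10 CD94-KO members, and Pf4, platelet factor 4, 104 and 6.37 CPM with 98.9%. Hspa1a, an inducible heat shock protein gene, had 407 and 64.8 CPM (6.28, 4.83 to 8.29), with 59.3% in 10 members; it shares nearly all its sequence with Hspa1b, at a ratio of 5.04. Mrc1, the macrophage mannose receptor, had 84.9 and 28.7 CPM. The summed macrophage and monocyte markers were 2197 CPM in CD94-KO dendritic members, against 1621 CPM in WT, and their part in these differences was not tested. Of 18 uptake genes 9 were at least 1.5-fold higher in the CD94-KO library and none lower, and of 23 stress response genes 7 were higher and none lower. Of 26 NF-kB genes none passed the fold in either direction, and of 23 maturation genes 1 was higher and 1 lower.

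With the same minimum, genes lower in CD94-KO dendritic members by size began with the histone gene Hist1h2bc (28.8 CPM against 74.4 CPM in WT, a ratio of 0.388, 0.266 to 0.563), Trf, which encodes the iron carrier transferrin (28.3 and 61.6 CPM, 0.459, 0.309 to 0.681), and the histone gene Hist1h1c (74.9 and 151 CPM, 0.496). Apoe, the lipid carrier made by macrophages, stood at 68.2 CPM in CD94-KO dendritic members, against 124 CPM in WT (0.549). Irf7, an interferon-induced transcription factor gene, had 39.4 and 71.2 CPM (0.553, 0.391 to 0.785), and Ifi35 and Nmi, which encode interferon-induced partners, had ratios of 0.564 and 0.551. Of 20 interferon-stimulated genes measured, however, 1 was at least 1.5-fold lower and none higher.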

How the data were processed

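Per the labels' protocols, live CD45+ cells were sorted, 3′ single-cell libraries were made on the 10x Genomics Chromium platform and sequenced on a NovaSeq instrument, and barcodes not associated with cells were removed. The deposited matrices hold UMI counts per gene and barcode, not normalized; per the file headers, Cell Ranger 5.0.0 wrote them. The submitters' processing notes name mm10 and Seurat 4.0. The files list 27998 genes and total 46107433 UMIs (CD94-KO) and 40261366 UMIs (WT). Of the barcodes, 496 CD94-KO and 1618 WT had under 1000 UMIs, and 408 CD94-KO and 777 WT barcodes, some of them the same ones, had 10% or more mitochondrial UMIs. No sort or caller separates doublets here; Scrublet (scanpy 1.11.5, Python 3.11.15) found no usable threshold, marking 0 CD94-KO and 2 WT barcodes, so its 4% highest scores were left out as an alternative.

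UMIs were summed per library and class (members, cDC1, cDC2, pDC) and fitted with edgeR 4.0.16 in R 4.3.3 (filterByExpr, TMM factors, library as a block, quasi-likelihood test, 3 residual degrees of freedom). Genes that chose a class were not tested. On simulated data of the comparison with cDC2, the test called 98% of genes raised 4-fold and 94% of those lowered 4-fold, and 16% and 28% of those changed 2-fold. The changed genes were drawn only from genes with many UMIs. Apart from these changes, all classes had the same mean profile, and all genes the same spread. These recoveries therefore do not cover genes of low counts or sums that mix cell types. CD94-KO and WT were compared by ratios of CPM over genes of at least 50 UMIs with exact conditional binomial intervals, and list medians use log2(CPM + 5). Since all barcodes of a genotype come from 1 library, cells are not replicates, and intervals cover counting error only.

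The members and the gene lists were chosen with earlier results of these data known. Of 563 symbols in the lists, 7 were not matched in the files. Genes named in the text are the rule genes and markers, up to 4 highest and 3 lowest called genes per list, genes of mature dendritic cells in those lists, up to 12 genes by size in each direction, and 32 listed genes for CD94-KO against WT. Some further genes (Id2, Nfkbia, Marcks, Ciita and the genes of the MHC II split) were named after their values were seen. Alternatives covered the rule sum, UMI and mitochondrial limits, C1q limit, thinning, normalization, low-count filters, DESeq2 1.42.0 and the choice of barcodes. Promoters are RefSeq's for GRCm38.p6.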

Additional observations from a re-analysis of the deposited data

Results flagged for a closer look

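Cd274 moved in opposite directions against cDC2 in the libraries when all members by the rule were taken: the log2 ratio of CPM, members over cDC2, was 0.96 in the CD94-KO library and -0.67 in the WT library. The difference between the libraries was not tested, since each genotype is 1 library. With dendritic members the ratios were 1.62 in the CD94-KO library and 1.42 in the WT library.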

How the results depend on the processing

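The share of members among kept barcodes and the number per cDC2 moved with the rule. In the CD94-KO library the share was 5.89% at a rule sum of at least 3, 3.88% at 8 and 3.07% with no C1q UMI allowed. It was 3.95% after thinning to 1000 UMIs, where a rule sum of at least 2 was asked, and 4.08% for dendritic members. In the WT library these shares were 6.01%, 3.46%, 2.90%, 3.52% and 3.18%, and 3.43% at 500 UMIs. Members per cDC2 were 1.74 at a sum of 3, 1.05 at 8 and 1.06 with a looser cDC2 rule in the CD94-KO library, and 0.957 at 8 and 0.903 for dendritic members in WT. After thinning they were 10.9 and 8.07. The member rule was then lowered to a sum of 2, while the cDC2 limit stayed at 3 and kept 16 and 14 barcodes. These 2 ratios are thus not comparable with the others. Genes higher than cDC2 numbered 2303 without a filter on low counts (15471 tested), and genes higher than cDC1 1358 without it and 536 by DESeq2. With library totals only, the split was 1963 higher and 1008 lower than cDC2 (66.1% higher, against 54.0%) and 1074 and 672 against cDC1 (61.5%, against 52.4%); DESeq2 gave 1067 and 1092 against cDC2 (49.4%) and 536 and 731 against cDC1 (42.3%). With no replicate block for library the counts were 1394 higher and 1124 lower than cDC2, and 834 and 708 against cDC1. No paired analysis was possible for CD94-KO against WT because each genotype is 1 library.

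The genes at least 1.5-fold higher in CD94-KO mregDC numbered 808 with each cell weighed the same, 779 at 200 UMIs, 338 in dendritic members, 360 in those of at least 3000 UMIs and 326 without the 10 per library richest in macrophage markers; genes at least 1.5-fold lower in CD94-KO mregDC numbered 834 at 200 UMIs and 160, 161 and 169 in those 3 sets. The sets of dendritic members were chosen after seeing the data.

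Against cDC2, Cd40 turned to 0.0084 at a sum of 8 and 1.32 with dendritic members, as did Cd80 (1.21), Cd86 (0.42), Cd83 (0.50) and Cxcl9 (0.43). Cd274 turned to -0.0056 without a filter, -0.13 with only 2 classes and -0.0021 without high Scrublet scores, Ccl17 to -0.080 and Traf1 to -0.020 with only 2 classes. With 1 library left out the values ran from -1.10 to 0.23 for Cd40, -1.28 to 0.20 for Cd80, -0.93 to 0.79 for Cd274, -0.14 to 1.58 for Pdcd1lg2, -0.81 to 0.79 for Ccl17, -0.78 to 0.87 for Traf1, -0.63 to 0.96 for Cxcl16, -0.70 to 0.95 for Cst3 and -0.045 to 1.02 for Irf8. For CD94-KO over WT, weighing cells the same turned Klrd1 to -0.077 and Ccl17 to -0.17, and a sum of 8 turned Col1a1 to -0.18. With dendritic members the log2 ratio turned for Klrd1 (-0.50), Ccr7 (-0.023), Fscn1 (-0.15), Ccl22 (-0.39), Ccl17 (-0.57), Ccl5 (-0.40), Socs2 (-0.30), Cd40 (-0.20), Cd86 (-0.13), Relb (-0.019), Cxcl9 (-0.35), Ccl2 (1.67), Nppb (0.29), Cxcl1 (1.23), Tubb3 (0.74), Slurp1 (0.29) and Fosl1 (0.33). The cause of these turns was not tested. Values for cDC1 rest on 44 CD94-KO and 22 WT barcodes.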
